A study of Mus musculus with 30 samples.

Results

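The genes described here are the Toll-like receptors Tlr1, Tlr2, Tlr4, Tlr6, Tlr7, Tlr8, Tlr9 and Tlr13 with the co-receptor Cd14 and the adaptor Myd88, taken as every probe whose platform symbol or older synonym is one of these names. They are 10 of 19057 genes and 16 of 45281 probes on a bead array. F4/80+ cells, a macrophage gate, had been sorted from bone marrow or spleen of Eµ-TCL1 mice, in which a B cell enhancer drives the TCL1 transgene and a chronic lymphocytic leukaemia develops, and their RNA was hybridised to 30 arrays. All mice carried TCL1+/wt on C57BL/6. In spleen there were 4 arrays of leukaemic Mif-/- mice and 3 of non-leukaemic Mif-/- mice, together the knockouts, against 3 of leukaemic Mif+/+ mice and 3 of non-leukaemic Mif+/+ mice, the wild types. Marrow of leukaemic knockouts gave 6 arrays and that of non-leukaemic knockouts 3, against 5 from leukaemic wild types and 3 from non-leukaemic wild types. The labels give leukaemic mice an age of 2 to 5 months and non-leukaemic mice one of 10 to 15 months, so leukaemia and age cannot be told apart. Leukaemia in this model develops with age, so the 2 ranges may have been exchanged in the labels, which these data could not check. The labels do not tie arrays to animals, so the spread between arrays may be partly technical. Every group carried the transgene, so no sorted cells of mice without it were compared here.

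Toll-like receptors recognise conserved microbial molecules. TLR1, TLR2, TLR4 and TLR6 sit at the cell surface, where TLR2 pairs with TLR1 or TLR6 to bind bacterial lipoproteins and TLR4 binds lipopolysaccharide that CD14 hands to it. TLR7, TLR8, TLR9 and TLR13 act in endosomes and read nucleic acids: single-stranded RNA for TLR7, unmethylated CpG DNA for TLR9 and bacterial ribosomal RNA for TLR13 in mice. MYD88 couples these receptors to the IRAK kinases and on to NF-kB and inflammatory cytokines, and macrophages are among the cells that express most of the family.

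The level of a gene is given throughout as normalised log2 intensity, a scale on which a step of 1 doubles the signal and on which levels of different probes cannot be compared. Mif itself, the cytokine deleted in the knockouts, lay between 4.14 and 5.07 on the 16 knockout arrays, against 10.41 to 12.38 on the 14 wild-type arrays. Adgre1, which encodes F4/80, lay between 7.73 and 10.25 on knockout arrays and between 7.7 and 10.75 on wild-type arrays. The median raw intensity of an array was 76.5 to 96.8, and 16492 to 18567 probes were detected. The sorted cells were not of macrophage lineage alone by their RNA: the summed linear level of 14 neutrophil markers was 1680 to 112000 over the arrays of spleen, against 13700 to 112000 over those of marrow, and that of 8 erythroid markers was 262 to 35500 in spleen, against 8950 to 36000 in marrow. Of the B cell markers, 6 were measurable, with sums of 169 to 1150 in spleen and 174 to 289 in marrow, and Cr2 and Pax5 did not pass the filter of detection on at least 3 arrays.

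Earlier work on these data had set 3 spleen arrays apart, and the main results are also given without all 3. WT-l-SP replicate 3, of a leukaemic wild-type spleen, had a mean neutrophil marker level of 12.01, against 6.11 and 6.85 on the other arrays of its group. WT-nl-SP replicate 1, of a non-leukaemic wild-type spleen, had a mean macrophage marker level of 9.93, against 6.8 and 8.04, and a mean monocyte marker level of 6.59, against 10.1 and 11.06. KO-l-SP replicate 2 had the highest mean erythroid marker level of its group, 10.44, against 7.52 to 9.96 on the other arrays of leukaemic knockout spleen. Other spleen arrays also differed from their groups: the mean erythroid marker level was 4.85 on KO-nl-SP replicate 5, against 7.9 and 9.83, and the mean T and NK cell marker level was 8.19 on KO-l-SP replicate 3, against 5.87 to 6.92. Xist, transcribed from the inactive X chromosome, was at 10.26 to 11.73 on 8 arrays, which include all 3 of leukaemic wild-type spleen, and at 4.17 to 4.39 on all 4 of leukaemic knockout spleen, so genotype and Xist cannot be told apart there. Tlr7, Tlr8 and Tlr13 are X-linked.

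Of the 10 genes, 9 were detected above background on all 30 arrays with at least 1 probe, at detection p-values under 0.05. Tlr9 was the exception. One of its probes was detected on no array and the other on 6, of which 1 was of leukaemic knockout spleen, 2 of non-leukaemic knockout spleen, 2 of non-leukaemic wild-type spleen and 1 of leukaemic wild-type marrow, so its levels of 4.15 to 4.59 in spleen and 4.17 to 4.47 in marrow are background and no fold is given for it. Of the 16 probes, 14 passed a filter of detection on at least 3 arrays and 13 were detected on every array. Where a gene had more than 1 such probe the brighter one was used, and the levels of the pair correlated over the 30 arrays at 0.79 for Tlr13, 0.78 for Tlr4, 0.65 for Tlr6 and 0.58 for Myd88. The third Tlr4 probe was detected on 2 arrays, both of leukaemic knockout marrow.

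Tlr7 had no promoter entry, and the promoters of Tlr1 reached into its annotated gene. Of the 7 genes with a promoter read here, those of the 3 above background that lie wholly before the annotated gene are shown. They are the 250 bases before the start in RefSeq's table for GRCm38.p6, written 5′ to 3′ on the strand of the gene, with motif matches in capitals. Tlr8 lies on chrX:167241123-167264329 and its window on chrX:167264330-167264579, minus strand. Tlr13 lies on chrX:106143275-106160493 and its window on chrX:106143025-106143274, plus strand. Myd88 lies on chr9:119335934-119340018 and its window on chr9:119340019-119340268, minus strand.
Tlr8: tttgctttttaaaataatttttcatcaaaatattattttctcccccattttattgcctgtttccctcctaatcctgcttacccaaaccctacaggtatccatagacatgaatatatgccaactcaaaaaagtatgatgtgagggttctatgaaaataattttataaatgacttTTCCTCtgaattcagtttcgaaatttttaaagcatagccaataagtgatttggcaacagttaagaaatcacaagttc
Tlr13: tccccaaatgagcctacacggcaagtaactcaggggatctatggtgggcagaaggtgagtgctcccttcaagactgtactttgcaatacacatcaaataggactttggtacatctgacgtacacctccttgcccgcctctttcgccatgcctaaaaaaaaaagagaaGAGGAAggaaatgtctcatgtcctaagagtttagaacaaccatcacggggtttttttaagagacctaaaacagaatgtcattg
Myd88: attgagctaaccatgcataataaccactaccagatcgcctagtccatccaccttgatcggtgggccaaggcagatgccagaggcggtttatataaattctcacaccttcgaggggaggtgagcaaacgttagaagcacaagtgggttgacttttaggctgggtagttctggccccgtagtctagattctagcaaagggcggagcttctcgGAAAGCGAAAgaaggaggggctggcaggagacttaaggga
The letters GAGGAA, a core bound by ETS factors such as the macrophage regulator PU.1, were searched on both strands and stood 77 to 72 bases before the start of Tlr8, as TTCCTC, and 83 to 78 bases before that of Tlr13. The Myd88 window held none of these letters but held GAAAGCGAAA, a match to the interferon-stimulated response element (GAAA, any 2 bases, GAAA), 40 to 31 bases before the start. Entries were found for 7 of the 10 genes, with 9 windows in all. The core GAGGAA was present for 4 of these genes, Tlr1, Tlr8, Tlr9 and Tlr13, and in 23.3% of all 32851 promoters of the table. The response element was present for Myd88 and Tlr6 and in 2.98% of promoters, and the NF-kB pattern GGAANNTCC for none of the genes and in 3.59% of promoters. Only this form of the NF-kB site was searched. A Tlr2 window held the letters GGGAATTCCC, which the pattern does not match, so the absence holds for this form alone. Tlr1 and Tlr6 had more than 1 window, so a count of genes is not on the same footing as a share of promoters. The matches of Tlr6 and Tlr1 lie inside their annotated genes. The 3 motifs do not overlap in the windows printed, and a match describes the letters alone.

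**Figure D1:**
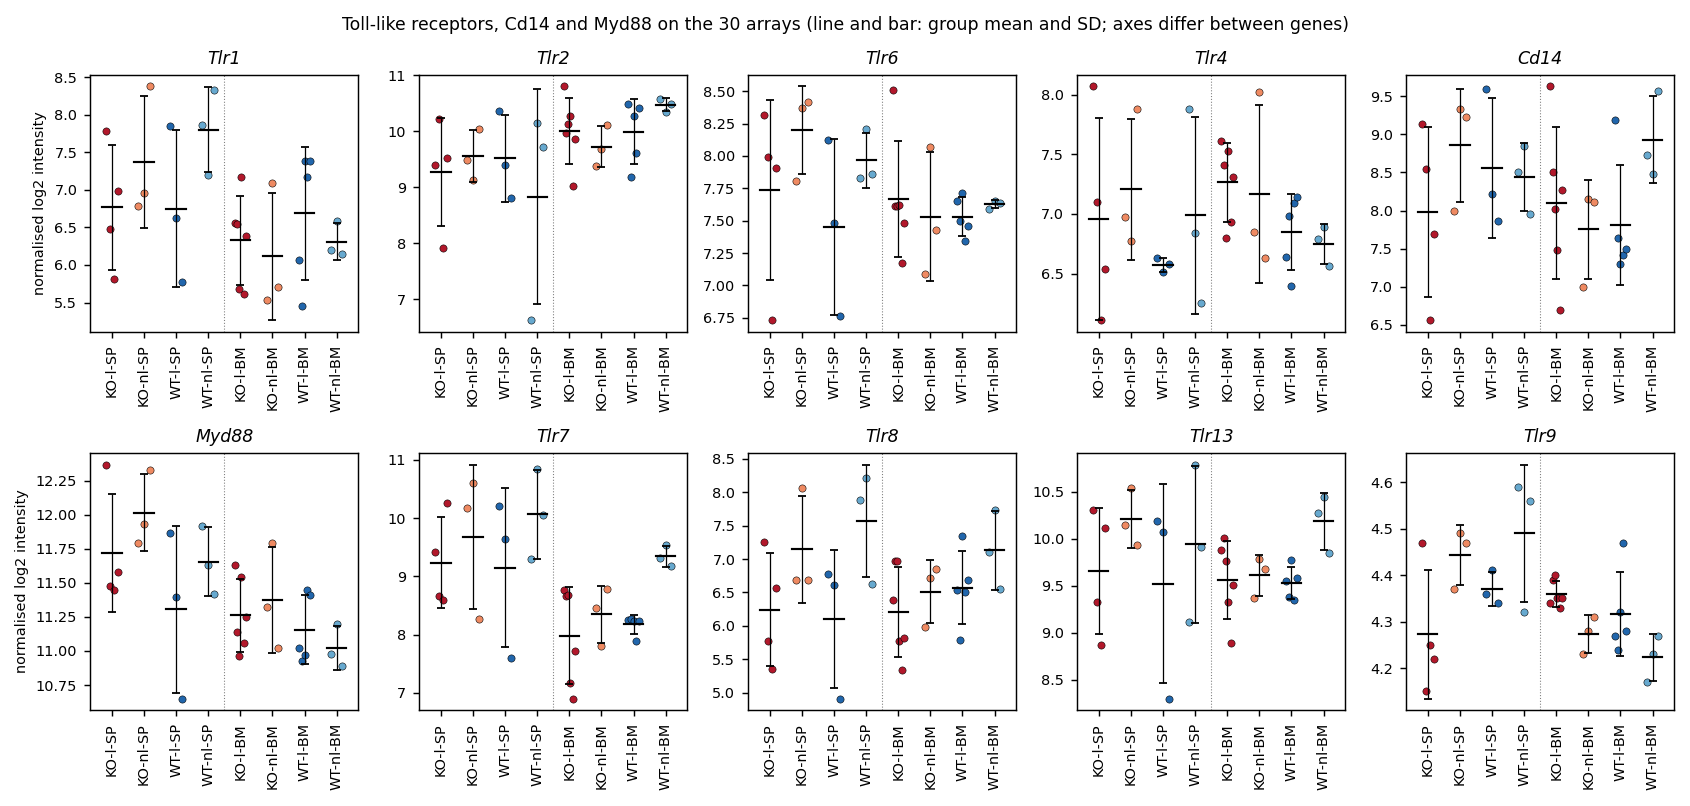
Normalised log2 intensity of each gene (y axis) on each array, by group (x axis), named by genotype, leukaemia (l) or none (nl) and spleen (SP) or marrow (BM); points are arrays, and the line and bar are the group mean and SD. Tlr7 is higher on most spleen arrays than on marrow arrays, and Tlr9 stays between 4.15 and 4.59 throughout.

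Spleen was compared with marrow over all 4 combinations of genotype and leukaemia. Of the 10 genes, 3 were higher in F4/80+ cells of spleen: Tlr7, the endosomal receptor for single-stranded RNA, Tlr1, the partner of TLR2, and the adaptor Myd88. None was lower. Across all 11937 genes tested, 15.7% were called in either direction and 8.5% were called higher, where called means an adjusted p under 0.05 in limma with Benjamini-Hochberg adjustment. The median difference of the 10 genes, Tlr9 at background among them, was 0.2 on the log2 scale, against 0.01 for all genes. These are bulk samples, in which fewer cells of a type and less RNA per cell cannot be told apart.

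Tlr7, on chrX:167303380-167330574, had the widest spread of group means. Its levels were 9.41, 8.67, 8.6 and 10.26 in leukaemic knockout spleen, 10.17, 10.6 and 8.27 in non-leukaemic knockout spleen, 10.2, 9.64 and 7.6 in leukaemic wild-type spleen, and 9.3, 10.84 and 10.05 in non-leukaemic wild-type spleen. In marrow they ran from 6.9 through a median of 8.19 to 8.76 in leukaemic knockouts and were 8.45, 7.81 and 8.78 in non-leukaemic knockouts, 8.25, 8.27, 8.23, 7.89 and 8.23 in leukaemic wild types, and 9.31, 9.54 and 9.18 in non-leukaemic wild types. Most spleen arrays were above most marrow arrays, but the tissues overlapped: the lowest spleen array belonged to leukaemic wild types and the highest marrow arrays to non-leukaemic wild types. The mean was 9.53 in spleen and 8.46 in marrow, a difference of 1.07 ± 0.29 on the log2 scale (SE) or 2.1-fold (adjusted p = 0.013, limma). The difference was 1.25 in leukaemic knockouts, 1.34 in non-leukaemic knockouts, 0.97 in leukaemic wild types and 0.72 in non-leukaemic wild types, with adjusted p-values of 0.15, 0.44, 0.58 and 0.59 in limma. On the same slide, spleen was above marrow in 5 of 7 pairs of groups, with differences between -0.25 and 2.37. With slide as a fixed block the value was 0.93 (adjusted p = 0.0504, limma), and without the 3 spleen arrays named above it was 1.41 (adjusted p = 0.000772, limma). All 3 calls held without those arrays, Myd88 being at 0.54 and Tlr1 at 0.95 (adjusted p = 0.00294 and 0.028, limma), and with the level of Xist as a covariate, Tlr7 being at 1.19 (adjusted p = 0.00622, limma). One of the arrays left out, WT-l-SP replicate 3, was the lowest of spleen for all 3 genes. Over all genes 2539 were called without the 3 arrays, against 1880 with them.

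Myd88, through which all 8 receptors signal, was also called higher in spleen. Its levels were 12.37, 11.48, 11.45 and 11.58 in leukaemic knockout spleen, 11.79, 11.93 and 12.33 in non-leukaemic knockout spleen, 11.87, 11.4 and 10.65 in leukaemic wild-type spleen, and 11.92, 11.63 and 11.42 in non-leukaemic wild-type spleen. In marrow they ran from 10.96 through 11.2 to 11.63 in leukaemic knockouts and were 11.32, 11.79 and 11.02 in non-leukaemic knockouts, 11.02, 10.93, 10.97, 11.45 and 11.41 in leukaemic wild types, and 10.98, 11.2 and 10.89 in non-leukaemic wild types. In non-leukaemic mice no marrow array was above a spleen array of the same genotype, although the closest pair of knockout arrays both stood at 11.79, and in leukaemic mice the tissues overlapped. The mean was 11.68 in spleen and 11.21 in marrow, a difference of 0.47 ± 0.13 (SE) or 1.39-fold (adjusted p = 0.013, limma). Spleen was above marrow in 6 of 7 pairs of groups on the same slide. The second Myd88 probe gave 0.21 ± 0.21 (adjusted p = 0.54 over all 23515 kept probes, limma), so the call rests on 1 probe, and scaling to the 75th percentile in place of quantile normalisation gave 0.42 (adjusted p = 0.0754, limma).

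Tlr1, on chr5:64924680-64933600, was at 7.79, 6.48, 5.81 and 6.99 in leukaemic knockout spleen, at 6.78, 6.96 and 8.38 in non-leukaemic knockout spleen, at 7.85, 6.63 and 5.77 in leukaemic wild-type spleen and at 7.87, 7.2 and 8.33 in non-leukaemic wild-type spleen. In marrow it ran from 5.62 through 6.47 to 7.17 in leukaemic knockouts and was at 5.54, 7.09 and 5.71 in non-leukaemic knockouts, at 6.06, 5.45, 7.39, 7.17 and 7.38 in leukaemic wild types and at 6.2, 6.59 and 6.14 in non-leukaemic wild types. Only the non-leukaemic wild types had spleen arrays that were all above their marrow arrays. The mean was 7.17 in spleen and 6.36 in marrow, a difference of 0.81 ± 0.28 (SE) or 1.76-fold (adjusted p = 0.048, limma). The difference was 1.49 in non-leukaemic wild types and 1.26 in non-leukaemic knockouts, against 0.06 in leukaemic wild types and 0.44 in leukaemic knockouts. The call was close to the threshold: it was lost without any 1 of 20 of the 30 arrays, with adjusted p-values from 0.0203 to 0.108 over all 30 omissions. It held without KO-l-BM replicate 4, KO-l-SP replicate 2 or 3, KO-nl-BM replicate 2, KO-nl-SP replicate 4, WT-nl-SP replicate 2, WT-l-BM replicate 3, 4 or 5, or WT-l-SP replicate 3.

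Tlr2, the receptor that TLR1 and TLR6 join, differed the other way without passing the test. Its levels in spleen were 9.4, 10.22, 7.92 and 9.52 in leukaemic knockouts, 9.49, 9.13 and 10.04 in non-leukaemic knockouts, 10.35, 9.39 and 8.81 in leukaemic wild types, and 6.62, 10.15 and 9.71 in non-leukaemic wild types. In marrow they ran from 9.01 through 10.04 to 10.8 in leukaemic knockouts and were 9.38, 9.68 and 10.11 in non-leukaemic knockouts, 10.49, 9.18, 10.26, 9.6 and 10.42 in leukaemic wild types and 10.57, 10.34 and 10.49 in non-leukaemic wild types. The lowest value, 6.62, came from WT-nl-SP replicate 1. The difference was -0.76 ± 0.30 (SE; adjusted p = 0.089, limma), negative in 7 of 7 pairs of groups on the same slide, and -0.47 without the 3 spleen arrays. Tlr2 was called lower with the authors' log2 values (-0.78, adjusted p = 0.0192; 12.9% of all genes lower), with array weights (-0.69, adjusted p = 0.0186; 12% of all genes lower) and without WT-nl-SP replicate 2 (-0.92, adjusted p = 0.0305).

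The other surface receptors and Cd14 did not pass the test between tissues. Tlr6 had a median of 7.91 in spleen (6.73 to 8.42) and 7.61 in marrow (7.09 to 8.51), a difference of 0.25 ± 0.16 (SE; adjusted p = 0.31, limma). Tlr4 had a median of 6.77 in spleen (6.11 to 8.07) and 6.93 in marrow (6.4 to 8.02), a difference of -0.08 ± 0.20 (SE; adjusted p = 0.83, limma). Cd14 had a median of 8.51 in spleen (6.56 to 9.6) and 8.11 in marrow (6.69 to 9.63), a difference of 0.31 ± 0.31 (SE; adjusted p = 0.54, limma). Among the endosomal receptors, Tlr8 differed by 0.16 ± 0.26 and Tlr13 by 0.11 ± 0.20 (SE; adjusted p = 0.73 and 0.76, limma), with their ranges overlapping almost fully. Their second probes also gave small values, -0.07 for Tlr6, -0.22 for Tlr4 and -0.1 for Tlr13.

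Within a single genotype and leukaemia state none of the 10 genes was called between tissues. Over all genes 2.35% were called in leukaemic knockouts, 0% in non-leukaemic knockouts, 0.0168% in leukaemic wild types and 3.86% in non-leukaemic wild types. In non-leukaemic wild types Tlr1, Tlr6 and Myd88 had higher values on every spleen array, 3 of the 9 genes above background, against 11.9% of all genes, and Tlr2 had lower values on every spleen array, against 13.5%. The second probes of Tlr6 and Myd88 overlapped there. That of Tlr6 was at 4.97 to 6.18 in spleen, against 5.66 to 6.03 in marrow, and that of Myd88 at 7.72 to 8.89, against 7.29 to 7.96. The separation of Tlr6 and of Myd88 in wild types therefore rests on 1 probe each. In non-leukaemic knockouts Tlr13 and Myd88 had higher values on every spleen array, 2 of the 9, against 8.09% of all genes. Their second probes did not overlap there either, at 7.21 to 7.76 against 6.68 to 7.04 for Tlr13 and 8.33 to 9.23 against 7.42 to 8.18 for Myd88. Tlr9, at background and kept mainly through spleen arrays, is left out of both counts. In leukaemic mice the tissues overlapped for all 10 genes, where 4.67% of all genes did not overlap in knockouts and 6.06% in wild types.

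Other genes of the pathway were described from 5 lists that hold 73 genes, of which 61 could be tested. Between spleen and marrow 17 of these were called higher, 2 were called lower and 42 were not called, with a median difference of 0.14. Over all genes 8.5% were called higher and 15.7% in either direction, the shares to set beside each list here and below. A place on a list does not show how a gene acted in these cells. The list of inhibitors held 8 of the calls among its 15 genes, all higher in spleen. They include Nfkbiz, an atypical IkB protein, at 1.25 ± 0.19, Dusp1, a phosphatase of MAP kinases, at 1.05 ± 0.18, Nfkbia, the classical NF-kB inhibitor, at 0.74 ± 0.14, and Otulin, a deubiquitinase of linear ubiquitin chains, at 0.5 ± 0.09 on the log2 scale (SE; adjusted p = 0.00013, 0.00038, 0.001 and 0.00028, limma). The other genes of that list called higher were Tnfaip3, Nfkbie, Tnip1 and Socs3.

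Of 8 NF-kB and IRF factors, 3 were higher in spleen: Relb by 1.18 ± 0.25, Irf3 by 0.34 ± 0.09 and Rela by 0.32 ± 0.09 (SE; adjusted p = 0.0025, 0.0094 and 0.013, limma). Of 13 target cytokines and enzymes, 5 were higher and 1 was lower. The chemokine Ccl4 was higher by 2.4 ± 0.35, Il18 by 1.01 ± 0.18, Il1b by 1.28 ± 0.31 and Ccl5 by 2.9 ± 0.77 (SE; adjusted p = 8.9e-05, 0.00054, 0.0069 and 0.012, limma), Ccl3 was also higher, and Il12a, a subunit of interleukin 12, fell by 0.53. Of 9 co-receptors and chaperones, Tlr11, a profilin receptor, was higher by 0.65 ± 0.18 and Lbp, which carries lipopolysaccharide to CD14, was lower at -1.27 ± 0.35 (SE; adjusted p = 0.017 and 0.014, limma). None of 16 adaptors and kinases was called, where Tab2 was at 0.29 and Map3k7, which encodes the kinase TAK1, at -0.28.

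Markers of other cells moved with tissue, where 15.7% of all genes were called in either direction. Of 14 neutrophil markers, 11 were called lower in spleen, with a median of -2.52, and these include Mpo at -3.28 and Elane at -3.18. Of 7 eosinophil and mast cell markers 4 were lower, with a median of -1.53, and of 8 erythroid markers 2 were lower, Alas2 and Slc4a1. Of 13 macrophage markers 4 were higher, among them Spic, a factor of splenic red pulp macrophages, at 2.75 and Mertk at 1.23. The summed macrophage marker level was 2080 to 28400 in spleen, against 2190 to 5160 in marrow, and 2080 to 7250 in spleen without the 3 arrays, WT-nl-SP replicate 1 having the highest sum. Of 7 dendritic cell markers measured, 2 were called higher in spleen, Zbtb46 and Itgax, with sums of 391 to 1910 in spleen, against 447 to 1440 in marrow. None of 6 T and NK cell markers was called, with a median sum of 731 in spleen, against 383 in marrow. The part of these cells in the differences of Tlr7, Tlr1 and Myd88 was not tested.

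**Figure D2:**
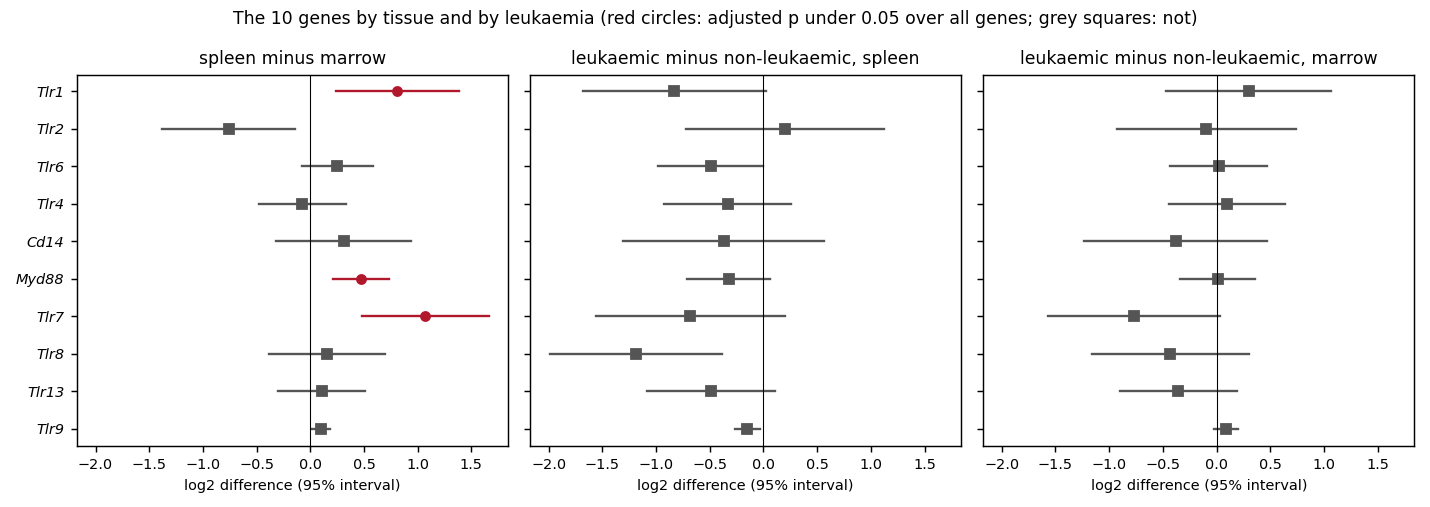
Difference in log2 intensity (x axis) of each gene (y axis) for spleen minus marrow, leukaemic minus non-leukaemic spleen and leukaemic minus non-leukaemic marrow; points are limma estimates, red with an adjusted p under 0.05 and grey otherwise, and lines are 95% confidence intervals. Tlr7 (1.07), Tlr1 (0.81) and Myd88 (0.47) lie right of 0 between tissues, and Tlr8 (-1.19) lies farthest left for leukaemia in spleen.

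Leukaemia was compared in spleen over both genotypes. None of the 10 genes was called, and over all genes 1 was called (0.00838%), while 1890 genes, or 15.8%, had an unadjusted p under 0.05. The count over all genes was 329 without WT-l-SP replicate 1, 248 without KO-nl-SP replicate 6, 51 and 32 without WT-nl-SP replicate 3 or 2, 26 without KO-l-SP replicate 1, and 0 or 1 without any other array of these groups, with none of the 10 genes called in any of these fits. The difference was negative for 9 of the 10 genes, Tlr9 at background among them, and for 53% of all genes. The median was -0.43 against -0.01. Arrays that were low for one of these genes were often low for the others, so these signs are not independent. KO-l-SP replicate 3 was the lowest of its group for 9 of the 9 genes above background and WT-l-SP replicate 3 for 8, whereas WT-l-SP replicate 1 was the highest of its group for 9 and KO-l-SP replicate 1 for 7. The mean neutrophil marker level was 7.82, 9.85, 9.71 and 7.27 on KO-l-SP replicates 1 to 4, and 6.85, 6.11 and 12.01 on WT-l-SP replicates 1 to 3. The mean T and NK cell marker level was 5.87, 6.45, 8.19 and 6.92 on the same knockout arrays. It was 4.63, 6.59 and 7.6 on the same wild-type arrays. Adgre1 was at 8.91, 8.82, 7.73 and 10.02, and at 9.99, 9.11 and 7.7, in the same order. The mean macrophage marker level was 7.18, 7.66, 6.42 and 6.96, and 6.75, 6.64 and 7.18. The part of neutrophils, T and NK cells and macrophages in the low arrays was not tested. Without the 3 spleen arrays named above the differences were smaller for most, at -0.52 for Tlr1, -0.39 for Tlr7 and -0.05 for Myd88, and that of Tlr2 was -0.33.

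Tlr8, an endosomal receptor close to Tlr7 on the X chromosome, had the largest difference of the 10. It was at 7.26, 5.78, 5.36 and 6.57 in leukaemic knockout spleen, against 6.68, 8.07 and 6.69 in non-leukaemic knockout spleen. In wild types it was at 6.77, 6.61 and 4.91 in leukaemic spleen, against 7.89, 8.21 and 6.62 in non-leukaemic spleen. Most leukaemic arrays were lower, with overlap in both genotypes. The mean was 6.17 in leukaemic and 7.36 in non-leukaemic spleen, a difference of -1.19 ± 0.39 (SE; 95% interval -1.99 to -0.39; adjusted p = 0.15, limma). It was -0.91 in knockouts and -1.48 in wild types, with adjusted p-values of 0.88 and 0.18 in limma, and -0.74 without the 3 spleen arrays named above (adjusted p = 0.615, limma).

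The call for Tlr8 differed between fits, and the cause was not tested. With slide as a fixed block it was -1.83 ± 0.46 (SE; adjusted p = 0.0401, limma), in a fit that called 3.74% of all genes, and with slide as a random block it was -1.22 ± 0.39 (SE; adjusted p = 0.134, limma). In the authors' own log2 values, which carry little variance between slides, it was -1.03 ± 0.20 (SE; adjusted p = 0.00111, limma). In those values 7 of the 10 genes were called lower, where 24.8% of all genes were called and 13.8% were called lower. They were Tlr1, Tlr6, Tlr7, Tlr8, Tlr9, Tlr13 and Myd88. Tlr9 is at background, and of the 6 arrays that detected it 2 were of non-leukaemic knockout and 2 of non-leukaemic wild-type spleen. It passed the filter mainly through the groups where it is higher, so its call is no support. With the authors' values and a slide block together none of the 10 was called (Tlr8 -1.04 ± 0.28, SE, adjusted p = 0.0515, limma) and 2.8% of all genes were. A single slide held leukaemic and non-leukaemic spleen of 1 genotype, wild type, and there the difference was -1.71 for Tlr8 and -2.45 for Tlr7, from 1 array each, the leukaemic one being WT-l-SP replicate 3, so that no same-slide value remains without it. With the level of Xist as a covariate Tlr8 was at -1.02 (adjusted p = 0.266, limma).

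**Figure D3:**
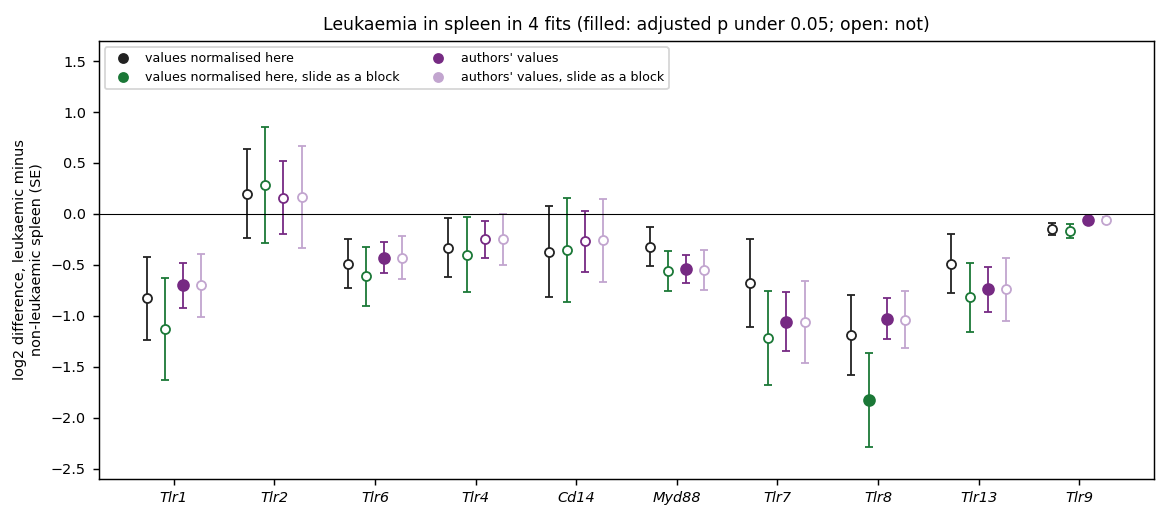
Difference in log2 intensity between leukaemic and non-leukaemic spleen (y axis) for each gene (x axis) in 4 fits; lines are SE and filled points have an adjusted p under 0.05. The authors' log2 values give 7 filled points, Tlr9 at background among them, the slide block 1 (Tlr8), and the other fits none.

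The rest of the genes had smaller differences. Tlr1 differed by -0.83 ± 0.41 and Tlr7 by -0.68 ± 0.43 between leukaemic and non-leukaemic spleen (SE; adjusted p = 0.32 and 0.45, limma). Tlr6 and Tlr13 each differed by -0.49, Cd14 by -0.37, Tlr4 by -0.33 and Myd88 by -0.32, and Tlr2 by 0.2, each with an adjusted p of 0.32 or more. Tlr13, the receptor for bacterial ribosomal RNA, was at 10.31, 9.33, 8.87 and 10.11 in leukaemic knockout spleen, against 10.15, 10.54 and 9.93 in non-leukaemic knockout spleen. In wild types it was at 10.19, 10.07 and 8.3 in leukaemic spleen, against 9.12, 10.79 and 9.91 in non-leukaemic spleen, so that its groups overlapped in both genotypes.

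The other pathway genes gave no call for leukaemia in spleen among 61 tested, of which 37 had negative differences, with a median of -0.13 over the lists. The smallest adjusted p-values among kinases and chaperones were 0.11 for Irak1, at -0.41, and 0.14 for Cnpy3, which folds Toll-like receptors, at -0.42. Unc93b1, which carries the endosomal receptors out of the endoplasmic reticulum, was at -0.58 (adjusted p = 0.15, limma), and the cytokine Il18 at -0.94 (adjusted p = 0.12, limma). Beside these values, 13 of 13 macrophage markers had negative differences, with a median of -0.93 and sums of 2080 to 5100 in leukaemic spleen, against 4230 to 28400 in non-leukaemic spleen. Without the 3 arrays the sums were 2080 to 4420, against 4230 to 7250. All 8 erythroid markers had positive differences, with a median of 1.83 and sums of 6590 to 35500, against 262 to 28800, and all 14 neutrophil markers likewise, with a median of 0.57 and sums of 1680 to 112000, against 1680 to 36400. No marker passed the test, and the part of these cells in the differences was not tested.

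**Figure D4:**
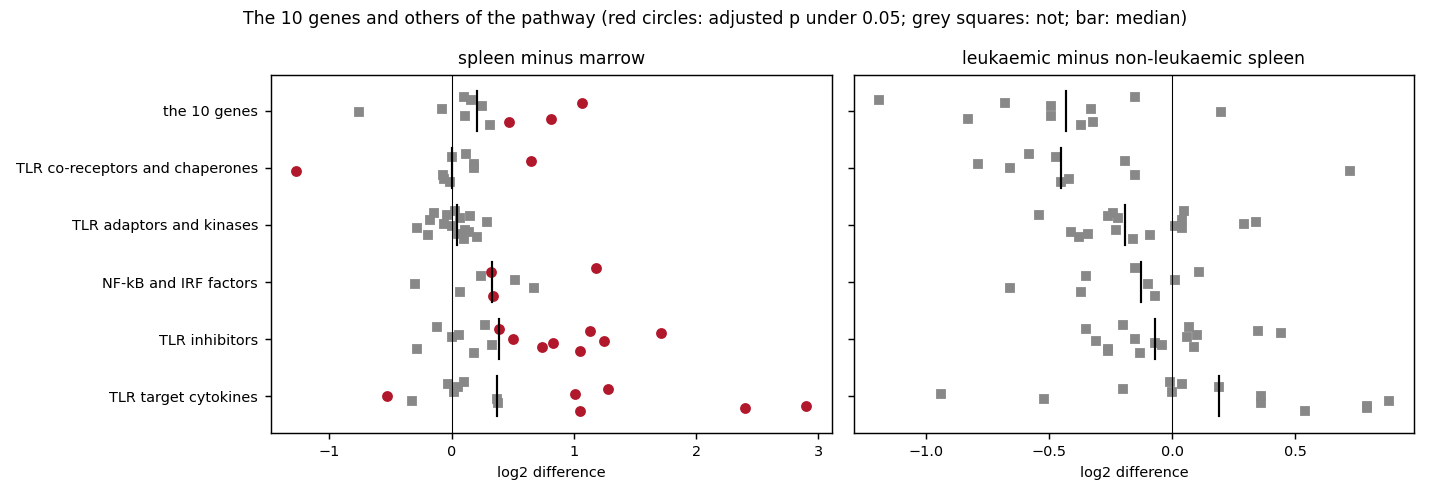
Difference in log2 intensity (x axis) of the 10 genes and of the genes of 5 pathway lists (y axis), for spleen minus marrow and for leukaemic minus non-leukaemic spleen; each point is a gene, red with an adjusted p under 0.05 and grey otherwise, and the bar is the median of the list. Between tissues the inhibitors and cytokines reach highest, with Ccl5 at 2.9. In leukaemic spleen the 10 genes, Tlr9 at background among them, have a median of -0.43.

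In marrow, leukaemia gave no call among the 10 genes and 1 call over all genes (0.00838%), with 1774 genes at an unadjusted p under 0.05. The signs were split, 5 positive and 5 negative. Tlr7 had the largest difference, with a mean of 8.08 in leukaemic and 8.85 in non-leukaemic marrow, or -0.77 ± 0.39 (SE; adjusted p = 0.36, limma). In wild types alone it was -1.17, and the 5 leukaemic arrays at 7.89 to 8.27 lay below the 3 non-leukaemic arrays at 9.18 to 9.54. Tlr13 did the same in wild types, at 9.35 to 9.77 against 9.85 to 10.44, a difference of -0.66. Its second probe overlapped there, at 6.2 to 7.68 against 7.4 to 8.06, so the separation of Tlr13 rests on 1 probe. Tlr7 and Tlr13 were 2 of 10 genes, against 5.48% of all genes that were lower without overlap there. Beside them the mean level of 7 dendritic cell markers was 5.24 to 6.02 in leukaemic and 6.25 to 6.39 in non-leukaemic wild-type marrow, with a median difference of -0.45 and none called, and its part was not tested. In knockout marrow both genes overlapped between leukaemic and non-leukaemic arrays. Xist ran from 4.14 through a median of 10.26 to 11.28 in leukaemic wild-type marrow, against 4.21 to 4.38 in non-leukaemic wild-type marrow. So Xist also differed between the wild-type groups in which the X-linked Tlr7 and Tlr13 separated.

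Array weights, which count variable arrays for less, called Tlr7 lower in leukaemic marrow (-0.94 ± 0.27, SE, adjusted p = 0.0186, limma), in a fit that called 18.7% of all genes. Of the 6 slides, 1 held leukaemic marrow and no other group, and on it the leukaemic knockout arrays had Tlr7 at 6.9 to 7.72, against 8.67 to 8.76 on the other slides, and Tlr8 at 5.34 to 5.82, against 6.39 to 6.97. Leukaemic wild-type arrays on that slide had Tlr1 at 7.17 to 7.39, against 5.45 to 6.06 on the other slides. The other genotype differed less or overlapped. Leukaemic knockout arrays had Tlr1 at 5.62 to 7.17, against 5.68 to 6.56. Leukaemic wild-type arrays had Tlr7 at 7.89 to 8.23, against 8.25 to 8.27, and Tlr8 at 6.51 to 7.34, against 5.79 to 6.54. So Tlr1 went with slide in leukaemic wild-type marrow but not in leukaemic knockout marrow. Tlr8 differed by -0.43 and Cd14 by -0.38 between leukaemic and non-leukaemic marrow, and Tlr1 by 0.3, all uncalled.

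The change with leukaemia in spleen minus that in marrow was tested directly. None of the 10 genes and none of all genes was called (0%) in limma, with 1570 genes at an unadjusted p under 0.05. Tlr1 had the largest value, -1.13 ± 0.55 (SE; adjusted p = 0.38, limma), followed by Tlr8 at -0.76. A leukaemia effect that differs between the tissues was therefore not detected for these receptors at this number of arrays.

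Knockout was compared with wild type in each tissue and state, to ask whether loss of Mif went with receptor levels. None of the 10 genes was called in any of the 4 comparisons. Over all genes limma called 5 in leukaemic spleen (0.0419%), 32 in non-leukaemic spleen (0.268%), 5 in leukaemic marrow (0.0419%) and 9 in non-leukaemic marrow (0.0754%). At an unadjusted p under 0.05 there were 631, 1220, 346 and 675 genes in the same order. Leaving out 1 array moved the counts over all genes to between 2 and 13 in leukaemic spleen, 12 and 331 in non-leukaemic spleen, 3 and 8 in leukaemic marrow and 2 and 5 in non-leukaemic marrow, the 331 being without WT-nl-SP replicate 2 and the 13 without WT-l-SP replicate 3.

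Non-leukaemic marrow had the most genes whose arrays did not overlap. Tlr2, Tlr7, Tlr13 and Cd14 were lower on every knockout array, 4 of 10, against 9.66% of all genes. The lower Tlr7 and Tlr13 in leukaemic wild-type marrow were set against the same wild-type arrays, so those results are not independent of these. For all 4 genes non-leukaemic wild-type marrow had the highest mean of the marrow groups, as for Tlr7 at 9.35 against 7.98 to 8.34. Cd14, the co-receptor for lipopolysaccharide, was at 7, 8.15 and 8.11 in knockouts, against 8.73, 8.48 and 9.57 in wild types, a difference of -1.18 ± 0.66 (SE; adjusted p = 0.89, limma). Tlr7 was at 8.45, 7.81 and 8.78, against 9.31, 9.54 and 9.18, a difference of -1 ± 0.62 (SE; adjusted p = 0.92, limma). Tlr13 differed by -0.57 and Tlr2 by -0.74. Beside them all 14 neutrophil markers had positive differences, none called, with a median of 1.15 and sums of 45600 to 109000 in knockouts, against 19800 to 43300 in wild types. All 6 monocyte markers had negative differences, with a median of -0.93 and sums of 5270 to 11900, against 13600 to 14700. The mean level of 7 dendritic cell markers was 5.45 to 6.02, against 6.25 to 6.39, with 6 of 7 differences negative, a median of -0.45 and none called. The part of these cells in the lower receptor levels was not tested.

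Myd88 and Tlr4 had small positive differences in all 4 comparisons. Myd88 was at 0.41 ± 0.25 in leukaemic spleen, 0.36 ± 0.27 in non-leukaemic spleen, 0.11 ± 0.20 in leukaemic marrow and 0.35 ± 0.27 in non-leukaemic marrow (SE). On the same slide, knockout was above wild type in 8 of 8 pairs of groups, by 0.01 to 0.89, and in 6 of 8 with the second Myd88 probe, from -0.24 to 1.06. Tlr4, the lipopolysaccharide receptor, was at 0.38 ± 0.40, 0.22 ± 0.42, 0.41 ± 0.31 and 0.42 ± 0.42 in the same order (SE), with 8 of 8 pairs positive on the first probe and 6 of 8 on the second. All 8 adjusted p-values were 0.74 or more in limma. The SD of Tlr4 was 0.06 to 0.85 within a group, and that of Myd88 was 0.16 to 0.61.

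Other values changed sign between comparisons. Tlr2 differed by -0.25 in leukaemic spleen, 0.73 in non-leukaemic spleen, 0.01 in leukaemic marrow and -0.74 in non-leukaemic marrow. The value of 0.73 rested on WT-nl-SP replicate 1, without which it was -0.37, and on the same slide knockout was above wild type for Tlr2 in 1 of 8 pairs of groups, from -1.19 to 0.13. Cd14 was at -0.58, 0.42, 0.29 and -1.18 in the same order, with knockout above wild type in 2 of 8 pairs on the same slide, from -1.74 to 1.32. In leukaemic marrow the single slide with 3 arrays of each genotype gave Tlr8 at -1.2, Tlr1 at -0.93 and Tlr7 at -0.85, none of them called. Of the 61 pathway genes none was called in any of the 4 comparisons.

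**Figure D5:**
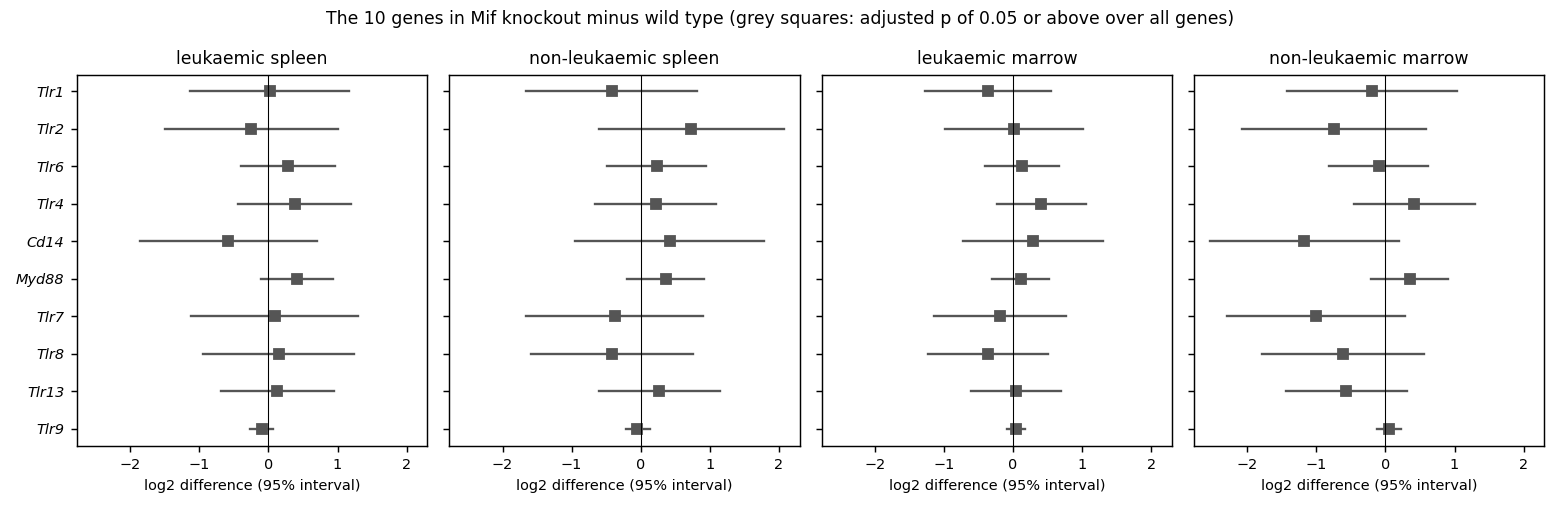
Difference in log2 intensity between knockout and wild type (x axis) for each gene (y axis) in the 4 combinations of tissue and leukaemia; points are limma estimates and lines are 95% confidence intervals. All intervals cross 0, and Cd14 in non-leukaemic marrow lies farthest from it, at -1.18.

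The order of the 8 group means differed between genes, and few neighbours in it stood apart. For Tlr7 it ran from non-leukaemic wild-type spleen (10.06 ± 0.77), through non-leukaemic knockout spleen (9.68 ± 1.24), non-leukaemic wild-type marrow (9.35 ± 0.18), leukaemic knockout spleen (9.23 ± 0.77), leukaemic wild-type spleen (9.15 ± 1.37), non-leukaemic knockout marrow (8.34 ± 0.50) and leukaemic wild-type marrow (8.18 ± 0.16), to leukaemic knockout marrow (7.98 ± 0.83, all SD). For Tlr1 the 4 spleen groups came first, between 7.8 ± 0.57 in non-leukaemic wild types and 6.75 ± 1.05 in leukaemic wild types, and the marrow groups after them, down to 6.11 ± 0.85 in non-leukaemic knockouts (SD). For Myd88 the first places were non-leukaemic knockout spleen (12.02 ± 0.28), leukaemic knockout spleen (11.72 ± 0.43) and non-leukaemic wild-type spleen (11.66 ± 0.25), and the last was non-leukaemic wild-type marrow (11.03 ± 0.16, all SD). The gap between neighbours was smaller than the larger SD of the pair for 8 genes throughout, and exceeded it once for Tlr4, between non-leukaemic wild-type marrow and leukaemic wild-type spleen, and once for Tlr9.

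The 10 genes varied by different amounts between groups. The range of group means was 2.08 for Tlr7, 1.69 for Tlr1, 1.64 for Tlr2, 1.48 for Tlr8, 1.18 for Cd14, 0.99 for Myd88, 0.75 for Tlr6, and 0.69 for Tlr4 and Tlr13. Tlr8 was highest in non-leukaemic wild-type spleen (7.57 ± 0.84) and lowest in leukaemic wild-type spleen (6.1 ± 1.03, SD). Tlr2 was highest in non-leukaemic wild-type marrow (10.47 ± 0.11) and lowest in non-leukaemic wild-type spleen (8.83 ± 1.92, SD), a group whose spread came from WT-nl-SP replicate 1.

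The genes most like each receptor were sought by Pearson correlation of level over the 30 arrays, which share tissue, slide and cell makeup, and are given as a description. Tlr7 was most like Col4a1 (0.91), Pip4k2a (0.9) and Sdf2 (0.89), and Tlr13 most like Grk5 (0.92), Nkiras2 (0.88) and Nrap (0.88). Tlr8 was most like Rab29 (0.91), Atp2b1 (0.89) and Usp8 (0.89). Among surface receptors, Tlr2 was most like Ugt1a7c (0.9), Ugt1a10 (0.89) and F13a1 (0.88), Tlr1 most like Adap2 (0.83), P2rx4 (0.83) and Aif1 (0.82), and Tlr6 most like Eps8 (0.86), C9orf72 (0.83) and Slc12a9 (0.82). Tlr4 had lower values, with Spryd3 (0.8), Osbpl9 (0.78) and Sema6b (0.77), as had Cd14, with Nepro (0.81), Tmem87b (0.78) and Ddx28 (0.78). Myd88 was most like Cept1 (0.87), Mvp (0.86) and Susd6 (0.85), and the highest correlation with Tlr9, which was near background, was 0.65, with Pigz.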

How the data were processed

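For every probe and array, the deposited non-normalised table holds an intensity as the authors scanned it, not on a log scale, and a detection p-value. The other deposited table holds log2 values of the authors, for which the submitters' processing notes name Partek without a version; their normalisation method is not stated in the sources used here. The median of each of its columns was 6.41, and each array correlated with its own log2 intensity at 0.99 to 0.997. In it slide went with 0.191% of within-group variance, against 24.2% in the values used here, and whether genes were centred is unknown.

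The neqc function of limma 3.58.1 (R 4.3.3, offset 16) corrected background and applied quantile normalisation. A probe was kept if at least 3 arrays detected it (p under 0.05), which left 23515 probes, and the probe with the highest mean stood for each of 11937 genes. One model of the 8 groups was fitted to all arrays with lmFit and eBayes, 16 contrasts were tested, and p-values were adjusted by Benjamini-Hochberg over all genes at 0.05. The code was tested on simulated data. Slide was read from the array numbers in the labels. Replicate numbers did not pair arrays: of 31 same-numbered pairs, 10 correlated above 0.1, over a range of -0.5 to 0.48. No arrays were identical, and the highest correlation between arrays was 0.994.

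The 10 genes, the lists and the tests were chosen with earlier results of these data known. Named by rule were the 10 genes, Mif, Adgre1 and Xist, up to 4 called genes of each pathway list with the smallest p (otherwise 2), and the 3 genes most like each of the 10; marker genes, Pigz and the remaining called pathway genes were named after their values were seen. RefSeq promoters are from GRCm38.p6. The number of arrays limits the precision.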

Additional observations from a re-analysis of the deposited data

Results flagged for a closer look

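Each of the 10 genes was examined in the 3 groups with 4 to 6 arrays, and in 4 of these 30 cases the highest or lowest array stood far from the others by Dixon's ratio, where chance gives about 1 in 20. Tlr6 was at 8.51 on KO-l-BM replicate 1, against 7.17 to 7.62 on the other leukaemic knockout marrow arrays. Tlr7 was at 7.89 on WT-l-BM replicate 4, against 8.23 to 8.27 on the other leukaemic wild-type marrow arrays, and Cd14 was at 9.19 on WT-l-BM replicate 1, against 7.3 to 7.64. Myd88 was at 12.37 on KO-l-SP replicate 1, against 11.45 to 11.58 on the other leukaemic knockout spleen arrays.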

How the results depend on the processing

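Each comparison was repeated under 14 other settings, or 15 for Mif loss in leukaemic marrow, and without each array of its groups in turn. Of 2322 recomputed member values 2283 kept their side of the threshold and, where called, their direction, 25 lost a call, 14 gained one and 0 reversed; 162 changed sign while uncalled both times. Of the 10 genes, leukaemia in spleen gave 7 calls with the authors' log2 values, Tlr9 at background among them, and 1 with slide as a fixed block. Leukaemia in marrow gave 1 with array weights. Spleen against marrow gave 5 with array weights and 2 to 5 without 1 array, 5 of them without WT-nl-SP replicate 2. With the replicate block spleen against marrow gave 2 calls, Tlr1 being at 0.75 (adjusted p = 0.0864, limma), and the other 7 comparisons gave 0. Tlr1 also lost its call without the filter (adjusted p = 0.0782, limma) and over all kept probes (adjusted p = 0.0552, limma). Tlr9, near background, was called between tissues with array weights and without WT-nl-SP replicate 2. Over all genes, calls between tissues numbered 1880, 3275 with the authors' values, 3241 with array weights, 1238 with the authors' values and a slide block, and 2948 of 23515 probes over all kept probes. Leukaemia in spleen gave 1, 2957, 446 with a slide block, 334 with both, 6 without background correction and 2 with the replicate block; leukaemia in marrow gave 1, 55 with the authors' values, 2235 with array weights and 6 over all kept probes. Mif loss gave 10 and 33 calls with the authors' values in leukaemic marrow and spleen, 35 and 130 in non-leukaemic marrow and spleen, and 7, 22, 1448 and 53 with array weights; in non-leukaemic marrow the compared groups alone gave 37. Without 1 array, counts over all genes ran from 0 to 329 for leukaemia in spleen, from 0 to 37 for leukaemia in marrow (37 and 24 without WT-l-BM replicate 2 or 1) and from 1487 to 2203 between tissues. Scaling to the 75th percentile moved the median of all genes by -0.11 for Mif loss in non-leukaemic marrow. The authors' values with a slide block and the Xist covariate were chosen after seeing the data, and the causes of these changes were not tested. The number of arrays limits the rest: with 3 arrays in most groups, the standard error of a member within 1 genotype and state reached 0.66.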
